A study of Mus musculus with 24 samples.

Results

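The amino acid transporters measured here were the 54 genes whose names on the array begin with Slc1a, Slc3a, Slc6a, Slc7a, Slc36a, Slc38a or Slc43a and end in digits, with Slc7a11 left out. They were 54 of 27962 gene names on the array and were represented by 91 probes, and each gene was represented by its brightest probe (mean intensity over both channels). Their mRNA was measured in whole colon and liver of 12 female C57BL/6 mice aged 12 weeks. Their dams had received the HF-low diet, rich in fat and poor in selenium and folate, through pregnancy and nursing. From weaning, 6 mice stayed on HF-low (HF-low-low) and 6 changed to HF-suf, a fat-rich diet with sufficient amounts of both nutrients (HF-low-suf), so no group was free of the low maternal diet or of the high-fat diet. Each of the 24 samples was labelled with Cy3 and hybridised against a Cy5-labelled pool of intestinal and liver RNA from the mice, and every value below is a log2 ratio of sample to that pool unless stated otherwise.

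Amino acids cross cell membranes on carriers of several solute carrier families, some driven by sodium or protons and others exchanging one amino acid for another. Slc7 exchangers of the light chain type reach the surface only when joined to a heavy chain, Slc3a1 or Slc3a2. In liver these carriers deliver glutamine, alanine and arginine to hepatocytes, and in the colon they serve the epithelium together with the muscle, nerve and fat of the wall.

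Labelled tissues were borne out by their defining transcripts: all 5 hepatocyte markers on the array were higher in liver and all 6 colon epithelium markers were higher in colon. Replicates of a group correlated at 0.655 to 0.938, and Cy3 signals had medians of 3.77 to 7.22 times their background. In 3 livers (HF-low-low replicate 6 and HF-low-suf replicates 4 and 5) the log2 ratios of all probes had a standard deviation of 0.527 to 0.600, against 0.811 to 0.968 in the other 9 livers. The liver of HF-low-suf replicate 1 also stood apart, with a mean of 2.63 over 5 adipose markers where no other liver exceeded -0.44. For 2 marker lists the reference went against its description as intestinal and liver RNA. All 6 skeletal muscle markers were well above background in Cy5 on 24 of 24 arrays, with mean ratios of -5.77 to -3.18. All 12 kidney markers examined were well above background in Cy5 on 24 of 24 arrays. In Cy3, 6 of 6 muscle and 9 of 12 kidney markers were above background on at least 6 arrays of liver, and the same counts held in colon. The kidney mean ratio lay between -3.92 and -2.50 on every array, so that the pool held transcripts that neither tissue showed at a like level. A ratio below 0 is therefore low against this pool, and differences between tissues or diets were used for all comparisons. The common reference is shared by both sides of a difference but need not cancel for probes near background. Of 7 members called higher in liver but detected on fewer than 6 livers, 0 were called with the Cy3 channel alone.

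Transporter profiles of the 2 tissues differed widely. Glutamine and alanine carriers Slc38a3 and Slc38a4, the GABA and betaine carriers Slc6a13 and Slc6a12, the glutamate carrier Slc1a2 and the arginine carrier Slc7a2 were 15.2-fold to 49.0-fold higher in liver by the fit. The broad neutral and cationic carrier Slc6a14, the glutamine exchanger Slc1a5 and the glutamine carrier Slc38a1 were 6.88-fold to 14.1-fold higher in colon. Where the lower tissue was mostly below background (Slc1a2 and Slc7a2, each above it on 1 of 12 colons, Slc38a4 on 4, Slc6a12 on 5, and Slc6a14 on 2 of 12 livers), the size of the fold is uncertain. Of 54 members, 15 were higher in liver and 15 higher in colon at a Benjamini-Hochberg adjusted P below 0.05 and a fold change above 1.5 (limma, 24 arrays, mouse as random block), and 24 did not pass. Among all 41174 probes, 11.4% were higher in liver and 12.2% higher in colon by the same rule. In 7 members every liver lay above every colon and in 7 every colon lay above every liver, against 5.97% and 6.5% of all probes. The members' median difference was 0.10, beside 0.02 over all probes. Bulk tissue cannot tell fewer cells of a type from less RNA per cell.

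Detection divided these calls. By the scanner software's flag for a signal well above background, 31 members were detected in at least 6 of the 12 samples of a tissue, 22 of them in liver and 27 in colon, and 10 were detected on all 24 arrays. Of the 15 called higher in liver, 8 were detected on at least 6 liver arrays, and of the 15 called higher in colon, 12 were detected on at least 6 colon arrays. These 20 calls held under 30 of 31 other settings, while median centring, used instead of loess, left 18, without Slc6a9 and Slc43a3. The setting with no fold limit could not lose a call, and those without single mice share most arrays, so the 31 are not independent checks. The split between tissues was less steady: 9 members were higher in liver and 17 in colon with plain background subtraction, 9 and 14 with no background correction, 7 and 15 with median centring, 12 and 19 with the scanner software's own processed signals (which moved the median of all probes to -0.19), and 8 and 16 with the Cy3 channel alone. Without the 3 livers of narrow spread, 9 were higher in liver and 17 in colon.

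**Figure D1:**
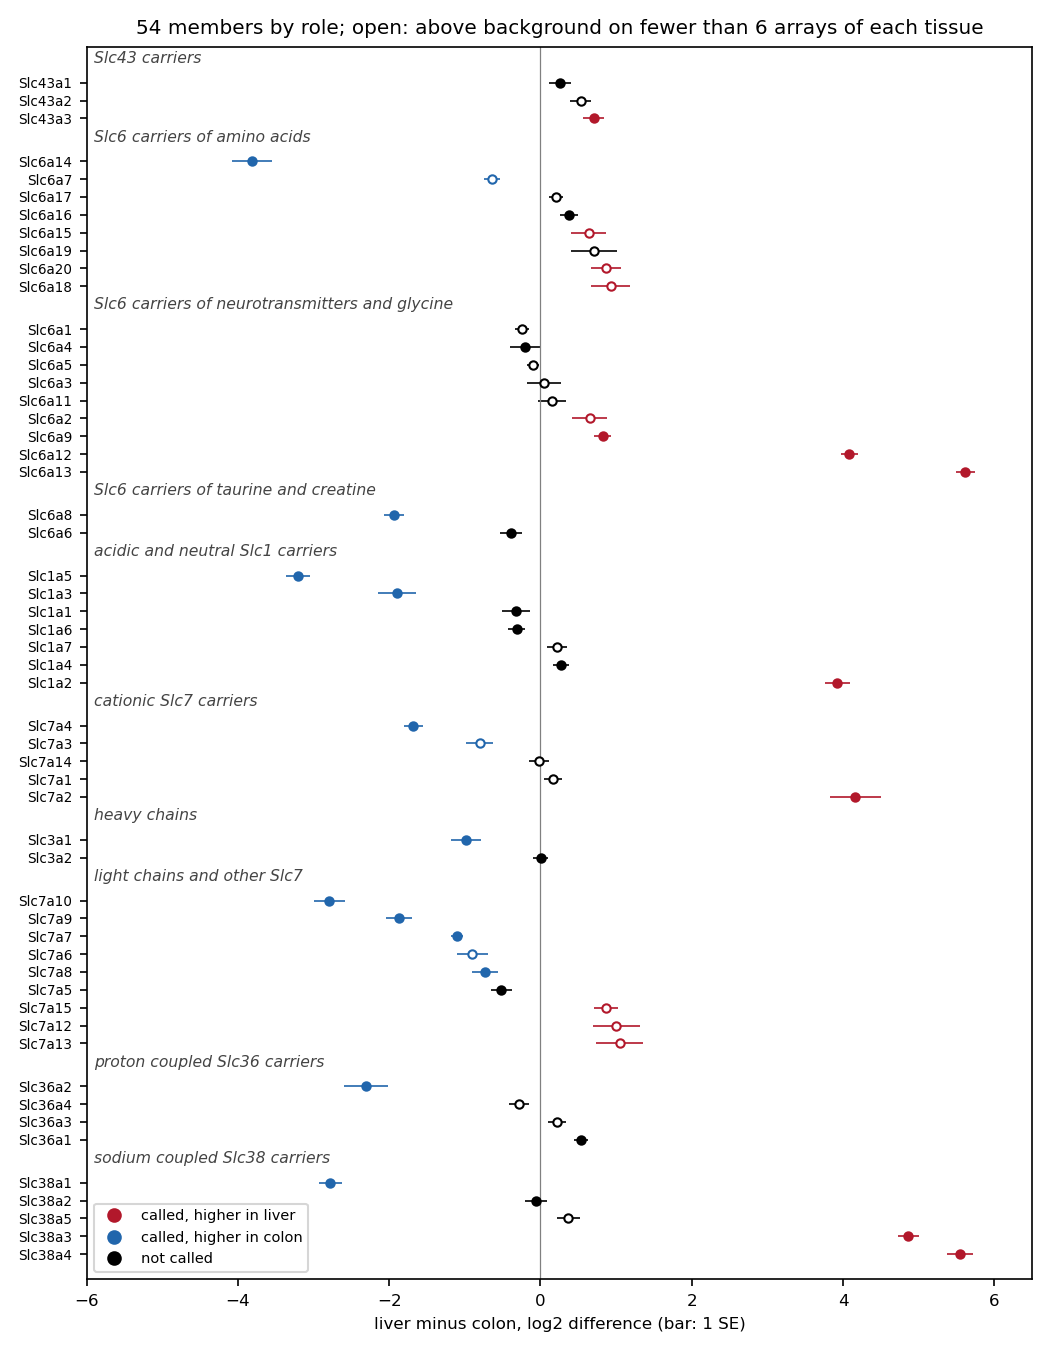
Liver minus colon difference in log2 ratio for the 54 members, grouped by role, with bars of 1 standard error (24 arrays). Red and blue points passed the test and black did not, and open points were above background on fewer than 6 arrays of each tissue. The largest differences, 5.62 in Slc6a13 and -3.82 in Slc6a14, are filled points, and the open red points lie between 0.64 and 1.05.

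The sodium-coupled carriers of the Slc38 family pointed in opposite directions. Slc38a4, a carrier of alanine and other small neutral amino acids, ran from 1.14 to 2.61 in liver (median 1.61) and from -4.27 to -3.31 in colon (median -3.70). The difference of 5.55 ± 0.17 (SE) passed the test (limma adjusted P = 7.2e-20), but only 4 of 12 colons showed the probe above background, so its size is uncertain. Slc38a3, which moves glutamine in and out of hepatocytes, ran from 0.83 to 2.55 in liver (median 2.04) and from -3.10 to -2.19 in colon (median -2.88), a difference of 4.86 ± 0.14. It was detected on all 24 arrays. Slc38a1, a glutamine carrier of the same family, was reversed: colons spanned 0.44 to 1.81 (median 1.49) and livers -2.10 to -0.53 (median -1.35), with a difference of -2.78 ± 0.15 (limma adjusted P = 1.71e-14). In none of these 3 genes did the tissues overlap. Slc38a2, an amino acid-responsive member detected in every sample, had a difference of -0.06 ± 0.14 that did not pass the test (limma adjusted P = 0.80).

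**Figure D2:**
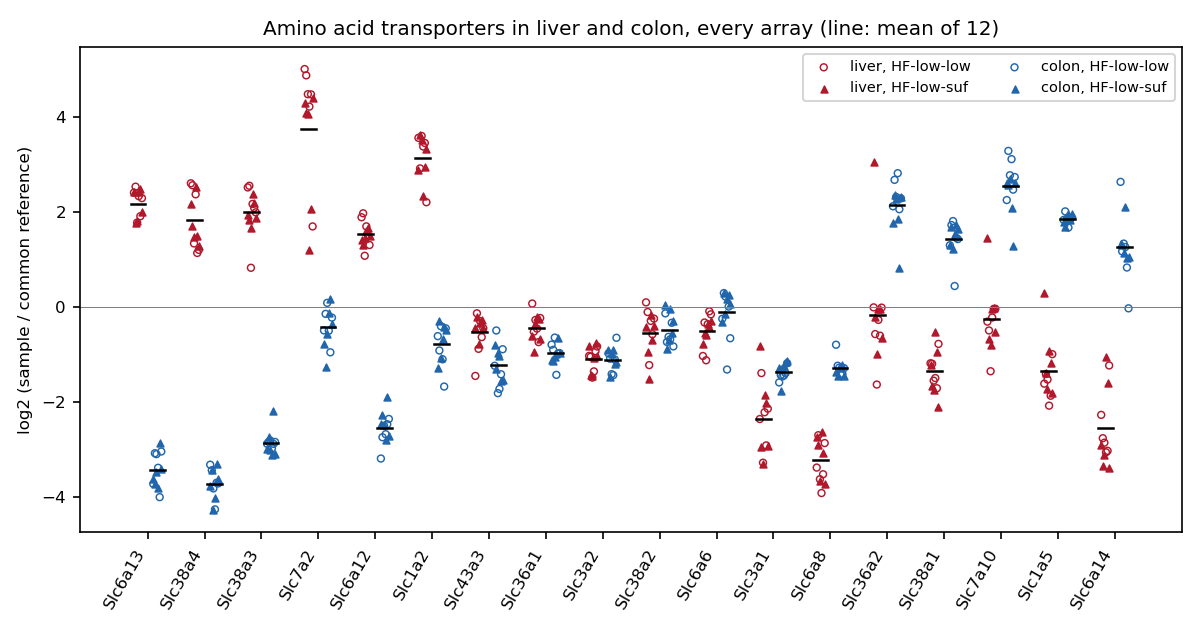
The log2 ratio of sample to reference on every array for 18 members, with liver in red, colon in blue, circles for HF-low-low, triangles for HF-low-suf and a line at the mean of 12 arrays. From Slc6a13 to Slc1a2 every liver is above every colon, and from Slc6a8 rightward every colon is above every liver except for Slc36a2 and Slc7a10, in which the liver of HF-low-suf replicate 1 reaches the colons.

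Among sodium- and chloride-coupled Slc6 carriers, the liver excess lay in a pair of neighbouring genes. Slc6a13, which takes up GABA and taurine, spanned 1.77 to 2.54 in liver (median 2.31) and -4.00 to -2.87 in colon (median -3.44). Its difference of 5.62 ± 0.13, 49.0-fold, was the largest of the 54 (limma adjusted P = 2.64e-23), and its other probe gave 5.10. Slc6a12, the betaine and GABA carrier, spanned 1.08 to 1.97 in liver (median 1.51) and -3.19 to -1.90 in colon (median -2.50), with 5 of 12 colons above background and a difference of 4.08 ± 0.11. Both were higher in liver in 12 of 12 mice (two-sided exact sign-flip test over mice, P = 0.000488, the smallest that 12 pairs can give). On build mm7 the probes of the pair lie at chr6:121362880-121362939 and chr6:121390824-121390883, 27.9 kb apart. The glycine carrier Slc6a9 was also higher in liver, by 0.82 ± 0.11, with livers from 0.78 to 1.87 and colons from 0.15 to 0.76, although this call was lost with median centring.

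Promoter sequences are shown for 4 members with wide tissue differences, 3 higher in liver and 1 in colon, so that the neighbouring pair can be read against the others (RefSeq, build GRCm38.p6; 35 of 54 members matched). Printed are the 250 bases before 1 start of each gene, 5′ to 3′ on the gene's strand, which for the 3 genes with several starts is a start whose window held a match. The windows are chr6:121303389-121303638 (plus strand) and chr6:121342653-121342902 (plus) for the neighbouring liver pair, chr15:97031214-97031463 (minus) for the liver Slc38 carrier and chrX:21714650-21714899 (plus) for the colon carrier. Capitals mark a match, on either strand, to any of 4 short motifs. The core site of nuclear receptors was searched as AGGTCA. The core of HNF1 sites, bound by a hepatocyte factor, was searched as GTTAAT. The core of CDX sites, bound by an intestinal factor, was searched as TTTATG. The TATA box was searched as TATAAA, and its reverse complement differs from the CDX core only in the last letter.
Slc6a13: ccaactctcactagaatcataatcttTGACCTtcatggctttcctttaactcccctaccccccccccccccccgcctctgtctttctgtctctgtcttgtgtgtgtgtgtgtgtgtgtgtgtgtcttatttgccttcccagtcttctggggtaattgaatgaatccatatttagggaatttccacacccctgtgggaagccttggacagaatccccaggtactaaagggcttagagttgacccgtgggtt
Slc6a12: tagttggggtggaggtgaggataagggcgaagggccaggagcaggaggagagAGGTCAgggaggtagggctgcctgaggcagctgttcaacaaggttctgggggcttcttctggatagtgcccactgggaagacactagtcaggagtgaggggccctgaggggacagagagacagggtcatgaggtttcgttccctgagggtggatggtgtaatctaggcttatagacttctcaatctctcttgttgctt
Slc38a4: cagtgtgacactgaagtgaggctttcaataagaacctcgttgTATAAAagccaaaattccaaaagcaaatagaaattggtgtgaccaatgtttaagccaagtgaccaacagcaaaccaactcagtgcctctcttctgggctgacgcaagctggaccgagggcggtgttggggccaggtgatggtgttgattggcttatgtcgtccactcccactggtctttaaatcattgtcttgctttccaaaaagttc
Slc6a14: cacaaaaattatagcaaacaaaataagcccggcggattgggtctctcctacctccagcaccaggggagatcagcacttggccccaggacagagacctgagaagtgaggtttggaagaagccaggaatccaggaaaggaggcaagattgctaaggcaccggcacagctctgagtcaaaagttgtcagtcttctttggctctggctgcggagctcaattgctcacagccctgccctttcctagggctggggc
AGGTCA, found in 14.0% of 32851 promoter windows of this length, occurred 224 bases before the Slc6a13 start, on the opposite strand, and 198 bases before that of Slc6a12. TATAAA, found in 12.4%, occurred 208 bases before the Slc38a4 start, and the Slc6a14 window held none of the 4 motifs. Over the 35 matched members, each with any of its starts, AGGTCA was present for 7 and TATAAA for 6. GTTAAT, found in 6.43% of all windows, was present for 5. TTTATG, found in 10.8%, was present for 1. These counts run over all starts of a gene (56 for the 35 members) while the shares are per window, so they cannot be set against each other. A match of letters is a description of the window only.

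The glutamate carrier Slc1a2 and the arginine carrier Slc7a2 were also higher in liver, while in each of their groups (7 Slc1 and 5 cationic Slc7 carriers) 2 members were higher in colon. Slc1a2, a high-affinity glutamate carrier, ran from 2.21 to 3.63 in liver (median 3.36) and from -1.67 to -0.29 in colon (median -0.64). The difference was 3.93 ± 0.17, and 1 of 12 colons showed the probe above background. Slc7a2, the cationic carrier of arginine, lysine and ornithine, had the widest spread among these liver genes, from 1.2 to 5.01 (median 4.26), against values that rose above background in 1 of 12 colons, -1.26 to 0.17 in colon (median -0.42). The 3 livers of narrow spread held its lowest values, 1.2 to 2.06, and the other 9 lay between 4.06 and 5.01. Its difference was 4.16 ± 0.34 over all arrays and 4.86 without those 3 livers. Slc43a3, a nucleobase carrier of a family otherwise of amino acid carriers, was detected on all 24 arrays and was 1.63-fold higher in liver (0.70 ± 0.14, limma adjusted P = 0.000179), with overlapping tissues, and this call too was lost with median centring.

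In colon the largest fitted excess belonged to Slc6a14, which carries neutral and cationic amino acids with sodium and chloride. Colons ranged from -0.03 to 2.64 (median 1.22) and livers from -3.38 to -1.05 (median -2.88), a difference of -3.82 ± 0.26 (limma adjusted P = 2.29e-12), and 2 of 12 livers showed it above background. Slc1a5, the sodium-dependent exchanger of glutamine, serine and alanine, was nearly constant across the 12 colons at 1.67 to 2.01 (median 1.85). Livers lay between -2.07 and 0.29 (median -1.47), and the highest was HF-low-suf replicate 1. Its difference was -3.21 ± 0.16, 9.22-fold higher in colon. The creatine carrier Slc6a8 was detected on all 24 arrays and was 3.84-fold higher in colon, with colons from -1.45 to -0.79 and livers from -3.91 to -2.62. Slc1a3, the glial glutamate carrier, had a difference of -1.89 ± 0.25, higher in colon in 12 of 12 mice, but was detected on 12 colons and 1 liver, so the size is uncertain. A list of 6 enteric neuron and glia markers ran in the same sense, with means of 1.19 to 2.02 in colons and -0.63 to 0.11 in livers, and its part in the difference of Slc1a3 was not tested. Slc7a4, a relative of the cationic carriers, had a difference of -1.68 ± 0.12 with no overlap, at 0.995 to 1.96 in colon and -0.82 to 0.09 in liver, where 1 of 11 samples with a value showed it above background, so this size is uncertain too.

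Heavy and light chains were measured side by side. Slc3a2, the heavy chain that carries most light chains to the surface, did not pass the test between tissues: livers ran from -1.48 to -0.75, colons from -1.46 to -0.65, and the difference was 0.0048 ± 0.10. With median centring it became -0.35 at an adjusted P of 0.036. Slc3a1, the heavy chain of the cystine carrier, was 1.98-fold higher in colon (limma adjusted P = 0.000219), with colons from -1.76 to -1.13 and livers from -3.29 to -0.83. Slc7a9, the light chain that pairs with Slc3a1, was 3.66-fold higher in colon with no overlap, at -1.93 to -1.28 in colon and -4.39 to -2.22 in liver. Slc7a7, which exports cationic amino acids with Slc3a2, was detected on all 24 arrays and was 2.15-fold higher in colon, again with no overlap. Slc7a8, an exchanger of neutral amino acids, was 1.67-fold higher in colon, and Slc7a5, which carries leucine and other large neutral amino acids, had a difference of -0.52 ± 0.14 that fell short of the fold limit. Of 9 light chains and other Slc7 members, 5 were higher in colon and 3 in liver, and 4 of those 5 but none of those 3 were detected on at least 6 arrays of the higher tissue.

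Slc7a10 and Slc36a2 were also high in colon, and both are known from fat cells. Slc7a10, an exchanger of small neutral amino acids, spanned 1.29 to 3.29 in colon (median 2.61) and was above background on no liver, so only a bound can be given: colon was at least 4.77-fold higher than liver, from normalised Cy3 signals with the dim arrays set no lower than the faintest signal called above background. Both sides of the bound are Cy3 signals of the same probe, and no dyes were swapped. Slc36a2, a proton-coupled carrier of glycine, alanine and proline, spanned 0.83 to 2.82 in colon (median 2.28) and -1.63 to 3.04 in liver (median -0.24), a difference of -2.31 ± 0.30 whose size is uncertain, since 2 of 12 livers were above background, and 11 of 12 mice had the higher ratio in colon. The exception was the mouse of HF-low-suf replicate 1, whose liver gave the value of 3.04. Means of the 5 adipose markers were 1.02 to 3.30 in the colons and -2.09 to 2.63 in the livers, with 5 of 5 markers detected in colon and 2 of 5 in liver on at least 6 arrays, while leptin was above background on 0 of 12 livers. Without the livers of HF-low-suf replicates 1 and 2, the difference of Slc36a2 was -2.61.

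Across the 12 colons, Slc7a10 rose with the mean of the 5 adipose markers (Pearson's r = 0.937, permutation P = 0.00012, adjusted over 2 relations 0.00024; Spearman's rho = 0.86, permutation P = 0.00069, adjusted 0.00138). Leaving out the 2 colons farthest from the median of the marker mean gave r = 0.911, and r was 0.901 and 0.941 within the scan days. For Slc36a2 r was 0.892 (permutation P = 0.00109, adjusted 0.00109) and rho 0.664 (permutation P = 0.0227, adjusted 0.0227). Without the 2 farthest colons r was 0.688, and within the scan days it was 0.468 and 0.968. Only these 2 of the 54 members were related to the markers, and the P values carry no correction for that choice. Genes and markers are ratios to the same Cy5 pool. The colon lowest in the markers, HF-low-suf replicate 5, had the brightest Cy5 channel and the lowest standard deviation of log2 ratios among colons (0.709). It was among the colons left out above. Whether the fat content of the samples set these levels was not tested.

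**Figure D3:**
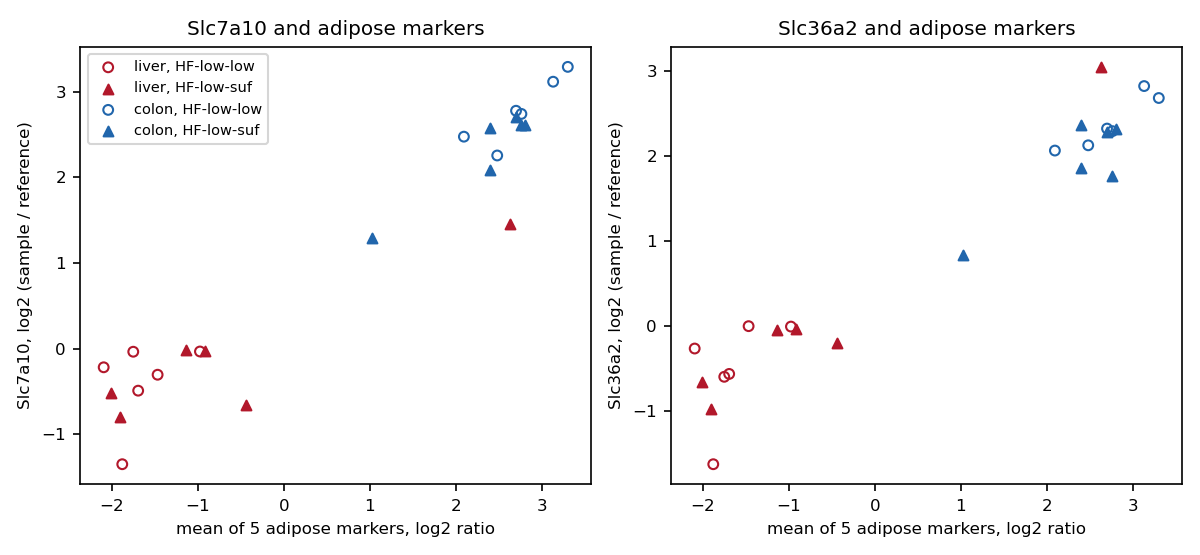
Log2 ratio of Slc7a10 (left) and Slc36a2 (right) against the mean log2 ratio of 5 adipose markers on each of 24 arrays, with colons in blue, livers in red, circles for HF-low-low and triangles for HF-low-suf. The colon lowest in the markers (1.02) is lowest in both genes, and the liver with a marker mean of 2.63 is the highest liver for both.

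Members detected on all 24 arrays with the smallest tissue differences were, besides Slc3a2 and Slc38a2, the taurine carrier Slc6a6 and the proton-coupled carrier Slc36a1. Slc6a6 ran from -1.12 to -0.09 in liver and from -1.31 to 0.31 in colon. Its difference of -0.39 ± 0.15 had an adjusted P of 0.040 below the fold limit. Slc36a1 ran from -0.94 to 0.07 in liver and from -1.43 to -0.64 in colon, and its difference of 0.54 ± 0.10 (limma adjusted P = 5.89e-05) also lay under the limit. With the limit kept, Slc6a6 passed it with median centring (-0.70), and Slc36a1 passed it at 0.60 with the scanner software's processed signals, in HF-low-low mice only and without the livers of HF-low-suf replicates 1 and 2. Different probes did not always give the same size. Of 25 members with more than 1 probe, 8 had 2 or more called probes, and in none of these 8 did the signs differ. The probes of Slc38a2 ranged from -0.40 to 0.34, and Slc1a1, a glutamate carrier, gave -0.33 with its main probe and -1.2 with the other.

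Several members were above background in the reference on every array but in few or no samples. Slc6a2, Slc6a15, Slc6a18, Slc6a19, Slc7a12, Slc7a13 and Slc38a5 were above background in Cy5 on 24 arrays and in Cy3 on at most 2, a pattern of 9.11% of all probes. Their mean ratios ran from -3.68 to -0.033 in liver and from -4.73 to -0.40 in colon, the highest in both being Slc38a5, whose level in liver was close to the pool. The channels did not detect equally: array medians were 5.43 to 18.2 times background in Cy5 and 3.77 to 7.22 times in Cy3. Slc6a18 and Slc6a19 are brush border carriers of neutral amino acids, and Slc7a12 and Slc7a13 are known from kidney. Tmem27, the kidney partner protein of these brush border carriers, had the same pattern with means of -5.04 in liver and -6.12 in colon. Of the 15 members called higher in liver, 7 were detected on fewer than 6 livers (Slc6a2, Slc6a15, Slc6a18, Slc6a20, Slc7a12, Slc7a13 and Slc7a15), with differences of 0.64 to 1.05, and 6 of 12 kidney markers were called higher in liver too, by 0.59 to 1.03. In the 3 livers of narrow spread Slc7a12 lay between -1.42 and -0.72 and in the other 9 at or below -2.80. No fold is read from these 7. Without the 3 livers of narrow spread, only Slc7a15 of them passed.

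**Figure D4:**
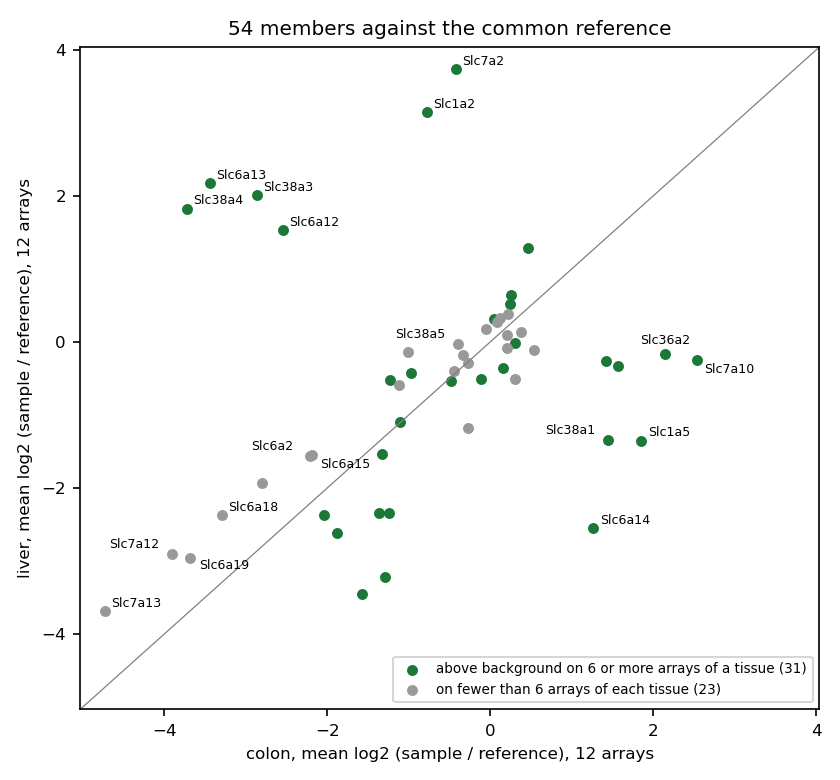
Mean log2 ratio of sample to reference in liver (vertical) against colon (horizontal) for 54 members, 12 arrays each, with a line of equal values. Green points were above background on 6 or more arrays of a tissue (31) and grey points on fewer than 6 of each (23). The grey points at the lower left, down to -4.73 in colon for Slc7a13, were above background in the reference on 24 arrays and in at most 4 samples.

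Neighbouring members did not always share a direction. On chromosome 15, Slc38a1, Slc38a2 and Slc38a4 lie in order with gaps of 112 and 307 kb between their probes, and their differences were -2.78, -0.06 and 5.55. On chromosome 7, Slc7a10 and Slc7a9, 266 kb apart, were both higher in colon. Slc36a3, Slc36a2 and Slc36a1 lie within a stretch of chromosome 11, with gaps of 7.2 and 77.3 kb, and only Slc36a2 passed the test.

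No member passed the study's threshold between diets in either tissue. That threshold, an unadjusted P below 0.01 with a fold change above 1.5, was passed by 0.109% of all probes in liver and 0.168% in colon (limma, 6 against 6 mice), and by 0 of 54 members in each. At P below 0.05 with no fold limit there was 1 member in liver (2.17% of all probes) and 0 in colon (2.99%). The smallest adjusted P of a member was 0.99993 in liver and 0.99979 in colon. Differences are given as HF-low-suf minus HF-low-low. For this orientation the study's supplementary array tables carry the opposite sign for nearly all probes they print, so directions here rest on the diets and dyes that the labels give. Among the 22 members detected in liver, 9 differences were above 0 and 13 below, with a median size of 0.086 and a median SE of 0.25. Among the 27 detected in colon, 13 were above 0 and 14 below, with a median size of 0.12 and a median SE of 0.16.

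In liver, the detected members with the smallest P were Slc1a5, Slc6a9, Slc7a2 and Slc38a2, and none of these differences passed the test. Slc1a5 ran from -2.07 to -0.99 (median -1.57) in HF-low-low and from -1.82 to 0.29 (median -1.28) in HF-low-suf, a difference of 0.46 ± 0.31 (limma P = 0.162, exact permutation P = 0.223). Without the livers of HF-low-suf replicates 1 and 2 it was 0.17. Slc6a9 differed by -0.26 ± 0.20 (limma P = 0.221, exact permutation P = 0.251) and Slc38a2 by -0.30 ± 0.25 (limma P = 0.25, exact permutation P = 0.297). Slc7a2 showed the widest difference of the detected members, -0.78 ± 0.64 (limma P = 0.241, exact permutation P = 0.232), with HF-low-low livers at 1.70 to 5.01 (median 4.48) and HF-low-suf livers at 1.2 to 4.39 (median 4.07). Leaving out the 3 livers of narrow spread, 1 in HF-low-low and 2 in HF-low-suf, gave -0.41. The member at P below 0.05 was Slc6a3, the dopamine carrier, at 0.74 ± 0.34 (limma P = 0.0447, exact permutation P = 0.0801), which was above background on no liver.

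In colon, the smallest P belonged to Slc6a16, an orphan Slc6 member, at -0.33 ± 0.16 (limma P = 0.0546, exact permutation P = 0.0519). Colons ran from 0.22 to 0.68 in HF-low-low and from -0.40 to 0.51 in HF-low-suf. From the Cy3 channel alone the difference was 0.056. Slc36a2 followed at -0.48 ± 0.24 (limma P = 0.0596, exact permutation P = 0.0801), with 2.06 to 2.82 (median 2.30) in HF-low-low and 0.83 to 2.36 (median 2.07) in HF-low-suf, and Slc7a10 at -0.46 ± 0.24 (limma P = 0.072, exact permutation P = 0.11), with 2.25 to 3.29 (median 2.76) and 1.29 to 2.70 (median 2.59). The lowest colon for both was HF-low-suf replicate 5, which also had the lowest adipose marker mean (1.02) and the brightest Cy5 channel. Without it the differences were -0.27 for Slc36a2 and -0.26 for Slc7a10. The adipose means were 2.09 to 3.30 in HF-low-low colons and 1.02 to 2.80 in HF-low-suf colons, and their part in these differences was not tested. Slc7a9 differed by -0.20 ± 0.13 (limma P = 0.158, exact permutation P = 0.0887). Slc1a5 differed by 0.0075 in colon (SE 0.12), with 1.67 to 2.01 in HF-low-low and 1.69 to 1.96 in HF-low-suf.

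**Figure D5:**
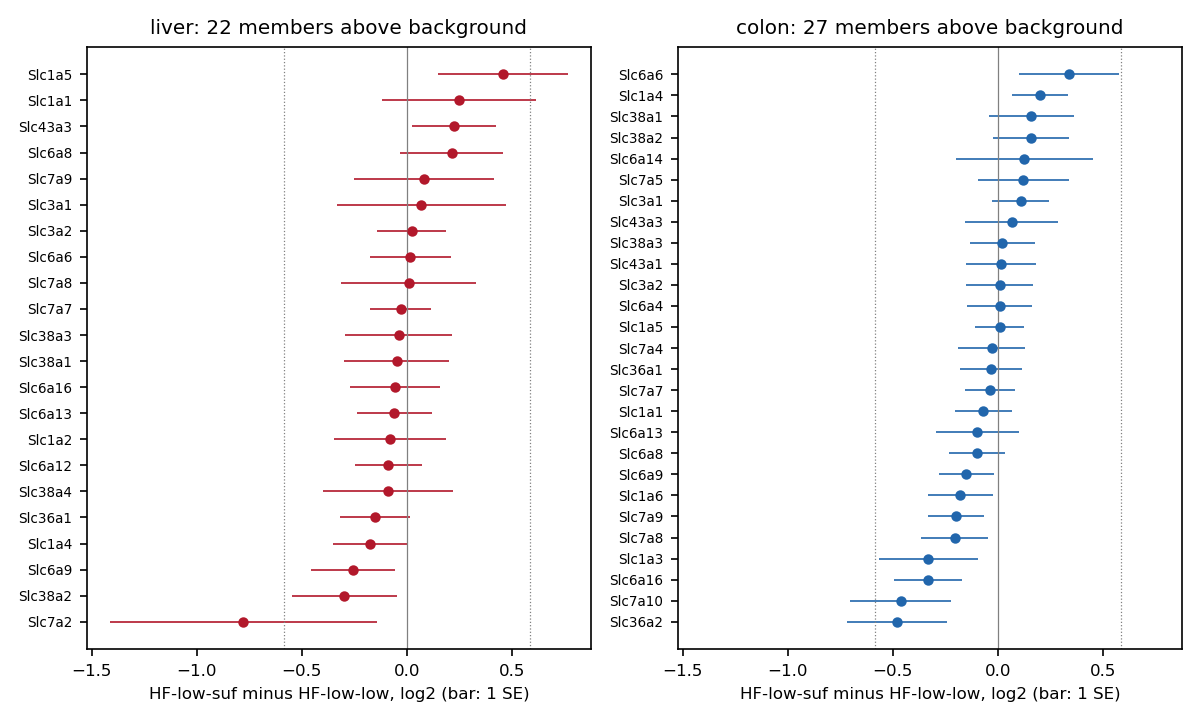
Difference between diets (HF-low-suf minus HF-low-low, log2) with bars of 1 standard error for the members above background on at least 6 of 12 arrays of liver (left, 22 members) or colon (right, 27 members). Dotted lines stand at a fold change of 1.5, and Slc7a2 in liver at -0.78 is the only point beyond them, with a P of 0.241.

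No member had a diet difference that itself differed between liver and colon at an adjusted P below 0.05 (limma interaction over 24 arrays, 0% of all probes), and none had an unadjusted P below 0.05. The smallest P was 0.0565, for Slc36a2, whose diet difference was 0.70 in liver and -0.48 in colon (limma adjusted P = 0.782), and only 2 of 12 livers were above background. Without the liver of HF-low-suf replicate 1 (3.04), the liver difference was 0.13.

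Other amino acid carriers and their partners, 22 of which were on the array, were higher in liver in 8 cases, beside 11.4% of all probes. Of the 8, Slc15a3 was above background on 5 of 12 livers and Tmem27 on 1, so no fold is read from them. Slc16a10, an exporter of aromatic amino acids, was 2.39 higher in liver on the log2 scale. The mitochondrial carriers Slc25a13 (aspartate and glutamate), Slc25a15 (ornithine) and Slc25a22 (glutamate) were 2.75, 2.91 and 1.87 higher. Slc25a15 was above background on 4 of 12 colons, so the size of its difference is uncertain. None of the 22 passed the diet threshold in either tissue, which 0.109% of all probes passed in liver and 0.168% in colon.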

How the data were processed

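Gene expression was measured in colon and liver of 12 mice on 24 two-colour arrays, 6 slides of 4 arrays with 1 array of each group. The authors deposited 1 file per array from Feature Extraction 9.5, and the intensity values used are its mean spot signals and median local backgrounds in Cy3 and Cy5, neither background corrected nor dye normalized. The authors' loess normalization is not part of them.

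Signals were background corrected by normexp (offset 50). The 1639 control spots of 45018 and spots that the scanner software marked as outliers were removed, and each array was normalized by loess (limma 3.58.1, R 4.3.3), giving log2(Cy3/Cy5) for 41174 probes. Tissues were compared over 24 arrays with the mouse as random block (statmod 1.5.0; correlation 0.158), and diets over 12 arrays of each tissue with the study's threshold. Single members were tested by exact permutation over 924 assignments of mice or by sign flips over 4096 patterns. Scan days and slides held all groups, and the 12 largest tissue differences kept their sign on every slide and scan day. Replicates were separate mice, and at most 0.00666% of signals were identical between replicates. On simulated data with 200 changed probes of 41174, 99.5% were recovered in the tissue comparison at a log2 change of 1.5, with 6 unchanged probes called. In the diet comparisons at a log2 change of 2, 99.5% were recovered in liver with 256 unchanged probes called and 100% in colon with 226, at the study's unadjusted threshold. That change exceeds every member's diet difference (-0.78 to 0.87 in liver, -0.48 to 0.34 in colon), so recovery of smaller changes was not tested. Simulated noise was normal and independent between arrays, unlike the real arrays, which gave 45 and 69 calls in all.

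Members, roles and lists were chosen with earlier results of these data known. Named members were the 12 with the largest tissue differences that passed the adjusted P and were detected on at least 6 arrays of a tissue, the largest of each other role, the 4 smallest among members detected on all arrays, and per tissue the 4 detected members with the smallest diet P, and others named were chosen after their values were seen. Kidney markers were listed after the members' Cy5 signals were seen. Names and probe positions (mm7) are those of the array files. Alternatives covered background, normalization, probe choice, blocks, thresholds and arrays left out. Depth does not apply to arrays, and the number of arrays limits precision. The result for 1 gene of the list of other carriers and partners is not reported here.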

Additional observations from a re-analysis of the deposited data

Results flagged for a closer look

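Of 84 groups of 6 arrays for the named members, 11 held an array whose gap to its neighbour was large against the range of its group, where about 1 in 20 would be expected by chance. In liver, Slc7a2 in HF-low-low replicate 6 was 1.70 with the next value at 4.22, and this is 1 of the 3 livers of narrow spread. The liver of HF-low-suf replicate 1 held high values of Slc36a2 (3.04) and Slc7a10 (1.45), and it had the highest adipose marker mean of the livers. The liver of HF-low-low replicate 3 was low in Slc38a3 (0.83), Slc7a10 (-1.35) and Slc36a2 (-1.63), and it had the highest standard deviation of log2 ratios of all arrays (0.968). In colon, Slc6a14 was high in HF-low-suf replicate 4 (2.11), Slc38a1 low in HF-low-low replicate 4 (0.44), Slc6a8 high in HF-low-low replicate 1 (-0.79), Slc3a1 low in HF-low-suf replicate 2 (-1.76) and Slc36a1 high in HF-low-suf replicate 5 (-0.64).

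In the reference channel, which entered the comparisons only as the denominator of each ratio, Slc6a2, Slc6a15, Slc6a18, Slc6a19, Slc7a12, Slc7a13 and Slc38a5 were above background on 24 of 24 arrays while at most 2 samples showed each of them in Cy3. The cause was not tested.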

How the results depend on the processing

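The 20 calls between tissues among detected members kept their direction and call under 30 of 31 alternatives, and median centring left 18 (without Slc6a9 and Slc43a3). The alternative with no fold limit could not lose a call, and the 31 share most arrays. The 7 liver calls of dim members all held under 12 of 31, and 26 members were called without the livers of narrow spread, an alternative chosen after seeing the data like those without livers HF-low-suf 1 and 2 or arrays of bright Cy5. Leaving out each mouse gave 28 to 32 called members. The mouse as a fixed replicate block gave 30 and no replicate block 29.

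With median centring Slc3a2 was -0.35 between tissues, and in HF-low-low mice only Slc38a2 was 0.17. The diet difference of Slc6a16 in colon was 0.056 with the Cy3 channel alone.

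The diet counts stayed at 0 in colon under every alternative. In liver 1 member passed the study's threshold with the scanner software's processed signals (Slc7a1, lower in HF-low-suf), and leaving out 1 array at a time gave 0 to 1, the 1 being Slc6a2 without HF-low-low replicate 6. The causes were not tested. With the slide as replicate block 0 members passed in either tissue and 0 differed between tissues. Replicate numbers gave the slide and did not pair the mice: deviations of same-numbered mice correlated at -0.50 to 0.53 in liver and -0.086 to 0.24 in colon, and 2 of 6 livers and 3 of 6 colons correlated best with their own number. Over all probes the slide block moved the calls from 45 to 121 in liver and from 69 to 92 in colon. Dim probes and 6 mice per diet limit what could be detected: a median SE of 0.25 in liver leaves small differences unresolved.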
